A study of Danio rerio with 12 samples.

Results

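The genes described here are 8 transcriptional targets of p53 and genes of cell death (mdm2, cdkn1a, ccng1, bbc3, baxa, gadd45aa, sesn1 and casp8), measured by RNA sequencing in whole zebrafish larvae with and without Elmo2. They were chosen by name, with earlier results of these data known. Their levels were read from the rows whose Ensembl identifier was matched to that symbol. Of 32520 gene rows in the data, 9 were matched to these 8 symbols. For 7 symbols there is a single row, with the baxa row listed as BAX. The table of gene names lists gadd45aa only under the name GADD45A, which covers 2 identifiers, and it does not say which of them is the a copy. Both rows are therefore reported, by identifier. A copy that was not chosen may thus be among the 9 rows, and counts and medians over the 9 rows include it. All 9 rows passed the filter on low counts.

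The study compared elmo2-/- with elmo2+/+ larvae at 120 hours post fertilization (hpf), in 6 samples per genotype that each pooled 30 whole larvae. The elmo2-/- line carries a frameshift made with CRISPR/Cas9 in the Tg(fli1:EGFP) line, a reporter in which the fli1 promoter drives EGFP in endothelial cells. The labels name no treatment for either genotype. Elmo2 is an adaptor that acts with DOCK proteins to activate the small GTPase Rac1, and it takes part in cell movement and in the uptake of dying cells. A pool of whole larvae mixes all tissues, so that fewer cells of a type and less RNA per cell cannot be told apart.

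p53 is a transcription factor that is held at a low level by the ubiquitin ligase Mdm2 and accumulates after DNA damage and other stress. It then induces genes that stop the cell cycle (cdkn1a), slow growth and repair DNA (gadd45 and sestrin genes), restrain p53 itself (mdm2, ccng1) or start death through mitochondria (bbc3, baxa). Death receptors act through the initiator caspase Casp8, and both routes end in executioner caspases. In zebrafish larvae a raised mdm2 and cdkn1a level is a widely used sign of p53 activity, and many of these genes also respond to other signals.

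The libraries held between 20116203 and 20939679 estimated counts. elmo2 itself, the targeted gene, lay between 31.4 and 51.6 normalised read counts (CPM, counts scaled to a common library size) with a median of 38.9 in elmo2-/- samples, and between 56.3 and 92.4 CPM with a median of 81.1 in elmo2+/+ samples. The genotypes did not overlap, and the log2 fold change was -0.93 ± 0.15 (SE, exact permutation p = 0.00216, the smallest that 6 against 6 samples can give). In edgeR's quasi-likelihood test elmo2 had an adjusted p of 0.642, so that test did not call the targeted gene. All 15 rows of markers of muscle, heart, liver, nerve, eye, skin, vessel, gut and cartilage stood above 1 TPM (transcript abundance scaled for length and to the same total in each sample) in every sample. Their summed level was 23900 to 25200 TPM in elmo2-/- samples and 20700 to 24900 TPM in elmo2+/+ samples, higher in elmo2-/- at an exact permutation p of 0.0498 that was 0.143 after adjustment over the 3 marker lists tested. The most abundant rows weigh most in this sum, such as krt4 with a mean of 9293 CPM in elmo2-/- samples, where kdrl had 21.4 CPM. Of the 15 rows, 9 had a log2 fold change above 0, beside 49.8 percent of all genes, and 6 below. None had an unadjusted edgeR p under 0.05, beside 4.68 percent of all genes. The part of the summed difference in the levels of the p53 target and cell death genes was not tested. The library numbers in the labels run from 13 to 16, 7 and 8 in elmo2-/- replicates 1 to 6 and from 1 to 6 in elmo2+/+, so the number of a library and its genotype cannot be told apart. The labels do not say whether the samples of a genotype came from separate clutches, and p-values measure the spread between these pools.

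Among the p53 target and cell death genes, 7 of the 9 rows had a fold change between 1.01 and 1.12 (elmo2-/- over elmo2+/+), and the GADD45A rows had fold changes of 1.28 and 1.81. The median log2 fold change of the 9 rows, elmo2-/- over elmo2+/+, was 0.12, beside -0.0006 over the 22259 genes tested. Of the 9 rows, 0 passed an adjusted p under 0.05 in edgeR's quasi-likelihood test, where all 9 had an adjusted p of 0.9997. The share of all genes called in that test was 0 percent, and elmo2 itself was not called. At an unadjusted p under 0.05 there were 2 of the 9 rows, beside 1041 genes or 4.68 percent of all genes in either direction. Both had the higher level in elmo2-/-, beside 2.55 percent of all genes in that direction. Both are GADD45A rows matched to the same symbol, so a copy outside the set may be among them. The CPM of the genotypes overlapped in all 9 rows, whereas 0.198 percent of all genes did not overlap. DESeq2 called 3 genes and limma on TPM called 1 gene, and none of these was a p53 target or cell death gene.

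All 9 log2 fold changes were above 0 on the count scale, beside 49.8 percent of all genes. Only 8 of 9 were when counts were scaled by library size alone, and 6 of 9 on the TPM scale. The genes were chosen with earlier results of these data known, so these counts may in part reflect that choice. The median of all genes was -0.019 with library size alone. On the TPM scale it was -0.035 with a pseudocount of 1 and -0.042 with 0.1. In 3 rows the estimate of the main fit was smaller than its own standard error.

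**Figure D1:**
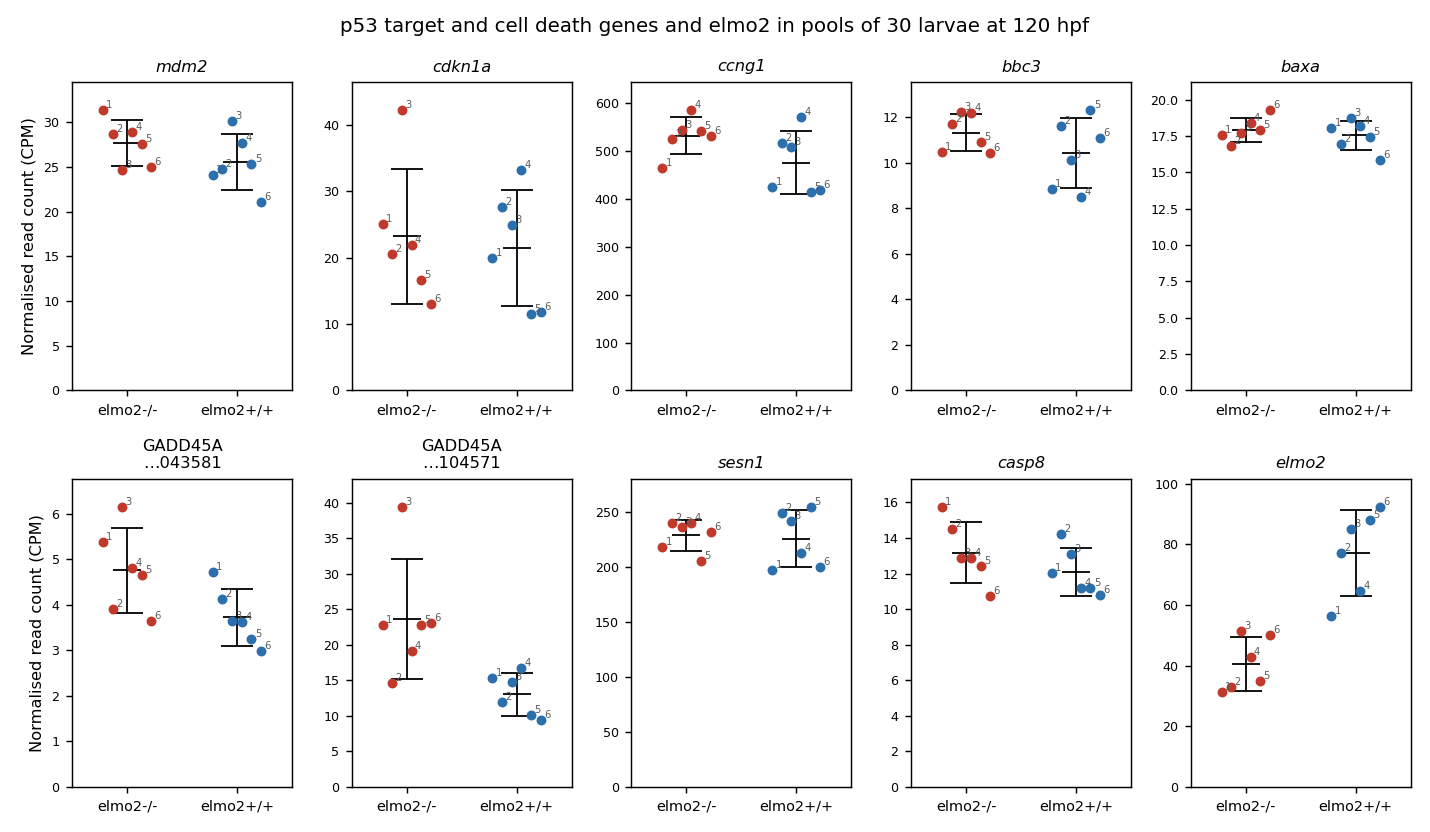
Normalised read count (CPM, linear axis from 0) of the 9 rows and of elmo2 in each sample, elmo2-/- left and elmo2+/+ right; numbers beside points are replicate numbers, and bars are mean ± SD (n = 6). The genotypes overlap in every panel except elmo2, where elmo2-/- samples end at 51.6 CPM and elmo2+/+ samples start at 56.3 CPM.

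Among the genes that restrain p53, mdm2 encodes the ubiquitin ligase that marks p53 for breakdown. Its CPM in elmo2-/- samples were 24.7 at the lowest, 28.1 at the median and 31.3 at the highest, against 21.0, 25.1 and 30.1 in elmo2+/+ samples. The ranges overlapped, with elmo2-/- replicate 1 above every elmo2+/+ sample and elmo2+/+ replicates 1 and 6 below every elmo2-/- sample. The log2 fold change was 0.12 ± 0.09 (SE), and the exact two-sided permutation test over the samples gave p = 0.214. An interval of 2 SE on either side ran from -0.06 to 0.30.

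ccng1 encodes cyclin G1, which recruits a phosphatase to Mdm2 and is among the most abundant p53 targets. Its CPM in elmo2-/- samples ranged from 466 through a median of 537 to 585, against 414, 467 and 572 in elmo2+/+ samples. elmo2+/+ replicates 1, 5 and 6 lay at 414 to 425 CPM and replicates 2, 3 and 4 at 509 to 572 CPM, whereas 5 of 6 elmo2-/- samples lay at 526 CPM or above. This gave a log2 fold change of 0.16 ± 0.09 (SE, exact permutation p = 0.0931).

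For the genes of cell cycle arrest and stress, cdkn1a, the inhibitor of cyclin-dependent kinases known as p21, varied most. Its lowest, median and highest CPM were 13.1, 21.2 and 42.2 in elmo2-/- samples and 11.5, 22.4 and 33.2 in elmo2+/+ samples. The samples within a genotype differed 3.22-fold in elmo2-/- and 2.89-fold in elmo2+/+, far more than the genotypes did, and elmo2-/- replicate 3 alone stood above all elmo2+/+ samples. The log2 fold change was 0.11 ± 0.30 (SE, exact permutation p = 0.723), with 2 SE on either side running from -0.49 to 0.72. It turned to -0.14 without elmo2-/- replicate 3, to -0.01 without elmo2+/+ replicate 5 or 6, and to -0.53 with elmo2-/- library numbers 7 and 8 only. Mean cdkn1a was 27.4 CPM in elmo2-/- library numbers 13 to 16 and 14.9 CPM in elmo2-/- library numbers 7 and 8, beside 21.5 CPM in elmo2+/+ samples.

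The GADD45A rows gave the largest differences of all 9. GADD45 proteins bind kinases and PCNA and are known for growth arrest and DNA repair after damage. ENSDARG00000104571 lay at 14.6, 22.8 and 39.4 CPM (lowest, median and highest) in elmo2-/- samples, against 9.39, 13.3 and 16.8 CPM in elmo2+/+ samples. Of the 6 elmo2-/- samples, 5 exceeded every elmo2+/+ sample, and elmo2-/- replicate 2 at 14.6 CPM made the ranges overlap. The log2 fold change was 0.86 ± 0.21 (SE), a 1.81-fold difference, with an exact permutation p = 0.00866 and an unadjusted edgeR p = 0.00124 that did not pass adjustment over all genes. Mean levels were 23.9 CPM in elmo2-/- library numbers 13 to 16 and 22.9 CPM in elmo2-/- library numbers 7 and 8, against 13.03 CPM in elmo2+/+ samples. Across the 22 alternative settings the log2 fold change ran from 0.65, without elmo2-/- replicate 3, to 0.96, and its unadjusted p stayed at or below 0.00457.

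The other GADD45A row, ENSDARG00000043581, was scarcer. Its CPM were 3.63, 4.73 and 6.15 (lowest, median and highest) in elmo2-/- samples and 2.98, 3.63 and 4.72 in elmo2+/+ samples. Here 3 elmo2-/- samples exceeded every elmo2+/+ sample, with elmo2-/- replicates 2, 5 and 6 lying inside the elmo2+/+ range. This row had a log2 fold change of 0.35 ± 0.15 (SE, exact permutation p = 0.0498). Leaving out elmo2-/- replicate 3 lowered it to 0.27, and with elmo2-/- library numbers 7 and 8 only it was 0.16 (edgeR unadjusted p = 0.444). Over the fits without 1 sample the unadjusted edgeR p reached 0.0869. It was also not under 0.05 without elmo2-/- replicate 1, 3 or 4, without elmo2+/+ replicate 3, 4, 5 or 6, with library size as the only scaling (0.0582) or on the TPM scale (limma, 0.0886 and 0.087).

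Immediate early genes, which are switched on within minutes by many stimuli, were set beside the GADD45A rows. A list of 20 such rows was put together after the GADD45A values and values of these genes had been seen, so it was not tested. Its direction and size may in part reflect that choice. All 20 had a log2 fold change above 0, beside 49.8 percent of all genes, with a median of 0.54. FOS lay at 19.1, 75.5 and 114 CPM (lowest, median and highest) in elmo2-/- samples, against 20.7, 30.0 and 59.4 CPM in elmo2+/+ samples. The mean deviation of the 20 rows from their own averages ran from -0.53 to 1.03 (log2) over elmo2-/- samples and from -0.50 to 0.10 over elmo2+/+ samples. elmo2-/- replicates 3, 1 and 5 were the highest, and elmo2-/- replicate 2 was the lowest of all 12. For GADD45A ENSDARG00000104571, elmo2-/- replicates 6, 5 and 1 lay close together at 23.04, 22.75 and 22.74 CPM. The mean deviations of these samples in the early genes were -0.09, 0.47 and 0.52. The part of these genes in the GADD45A difference was not tested.

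sesn1 encodes Sestrin 1, a p53 target that lowers mTORC1 activity. It had 205.5, 233.7 and 240.0 CPM (lowest, median and highest) in elmo2-/- samples and 197, 227 and 254 CPM in elmo2+/+ samples, so that the elmo2-/- range lay wholly inside that of elmo2+/+. Its log2 fold change was 0.02 ± 0.08 (SE, exact permutation p = 0.775).

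Among the genes of the mitochondrial route, bbc3 encodes Puma, a BH3-only protein that p53 induces and that blocks anti-apoptotic Bcl2 proteins. It had 10.4, 11.3 and 12.3 CPM (lowest, median and highest) in elmo2-/- samples and 8.50, 10.6 and 12.3 CPM in elmo2+/+ samples. No elmo2-/- sample exceeded the highest elmo2+/+ sample, whereas elmo2+/+ replicates 1, 3 and 4 lay below all elmo2-/- samples. For bbc3 the log2 fold change was 0.12 ± 0.10 (SE, exact permutation p = 0.221).

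baxa encodes Bax, which forms pores in the outer mitochondrial membrane. It had 16.8, 17.8 and 19.3 CPM (lowest, median and highest) in elmo2-/- samples and 15.8, 17.8 and 18.7 CPM in elmo2+/+ samples. The medians were nearly equal and the log2 fold change was 0.03 ± 0.06 (SE, exact permutation p = 0.474), with 2 SE on either side running from -0.09 to 0.15.

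Of the caspases, casp8 encodes the initiator caspase of death receptors. It had 10.7, 12.9 and 15.8 CPM (lowest, median and highest) in elmo2-/- samples and 10.8, 11.6 and 14.2 CPM in elmo2+/+ samples. elmo2-/- replicates 1 and 2 exceeded all elmo2+/+ samples and elmo2-/- replicate 6 lay below them all. The log2 fold change was 0.13 ± 0.10 (SE, exact permutation p = 0.253), and it was -0.06 with elmo2-/- library numbers 7 and 8 only. These are RNA levels, and cleavage of caspases was not measured in these files.

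Per transcript length, the order of the levels was read from TPM over all 12 samples. ccng1 was highest at 341 ± 31.1 TPM (SD, n = 12), followed by sesn1 at 75.2 ± 7.15 TPM, and the ranges of both were apart from each other and from the next gene. cdkn1a (35.0 ± 13.4 TPM), mdm2 (24.6 ± 3.0 TPM) and GADD45A ENSDARG00000104571 (22.6 ± 9.67 TPM) followed with ranges that overlapped from each to the next. cdkn1a exceeded mdm2 in 9 of 12 samples and mdm2 exceeded the GADD45A row in 7 of 12. The order of this last pair differed by genotype, with mdm2 above the GADD45A row in 1 of 6 elmo2-/- samples (means of 24.1 and 29.0 TPM) and in 6 of 6 elmo2+/+ samples (25.1 and 16.2 TPM). GADD45A ENSDARG00000104571 was above baxa (11.7 ± 0.822 TPM) in all 12 samples, although the ranges overlapped. The remaining rows lay below baxa without overlap. GADD45A ENSDARG00000043581 had 4.78 ± 1.11 TPM, casp8 4.10 ± 0.738 TPM and bbc3 3.54 ± 0.416 TPM, again overlapping from each to the next. The highest and the lowest mean differed 96.3-fold.

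The genes also differed in how much they varied between pools of the same genotype. The biological coefficient of variation, the spread beyond counting error, was 0.361 for cdkn1a and 0.255 for GADD45A ENSDARG00000104571, where genes of their abundance had 0.155 and 0.157. baxa stood at the other end with 0.0817, where genes of its abundance had 0.157. mdm2 (0.116), ccng1 (0.126), bbc3 (0.119), sesn1 (0.113) and casp8 (0.122) were all below the value of genes of like abundance, which was between 0.153 and 0.168.

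**Figure D2:**
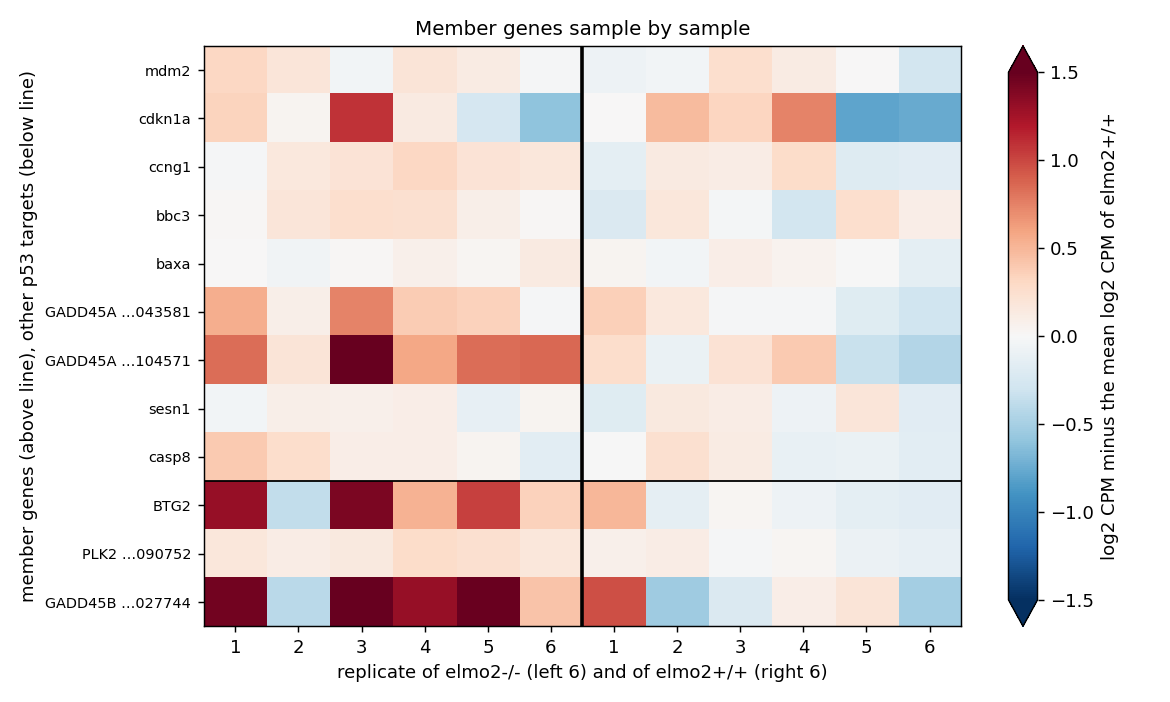
Log2 CPM of the 9 rows and of 3 further p53 targets in each of the 12 samples, as the difference from the elmo2+/+ mean of the gene; red is higher and blue lower, and the colour stops at 1.5. cdkn1a spans both colours in each genotype, GADD45A ENSDARG00000104571 is red in all 6 elmo2-/- samples, and the bottom row, GADD45B ENSDARG00000027744, runs from 22.3 to 102 CPM in elmo2-/- samples.

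Whether the genes varied together between pools was examined over the 12 samples, in 36 pairs of rows. None of the 36 passed a permutation test at an adjusted p under 0.05, and 4 had an unadjusted p under 0.05. The closest pair was the GADD45A rows with Pearson's r = 0.80 (permutation p = 0.00185, adjusted p = 0.0666) and Spearman's rho = 0.63 (permutation p = 0.0325, adjusted p = 0.316). Their r was 0.61 without the 2 samples farthest from the median, 0.70 within elmo2-/- and 0.64 within elmo2+/+. cdkn1a and GADD45A ENSDARG00000043581 had r = 0.64 (permutation p = 0.026, adjusted p = 0.295) and rho = 0.55 (permutation p = 0.071, adjusted p = 0.316), and r was 0.35 without the 2 farthest samples. mdm2 and cdkn1a, both read as signs of p53 activity, had r = 0.37 (permutation p = 0.23, adjusted p = 0.591). For this pair r was 0.08 without the 2 farthest samples, -0.04 within elmo2-/- and 0.63 within elmo2+/+.

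The sign of r was above 0 in 30 of 36 pairs and the median r was 0.28. With the genotype means removed it was above 0 in 26 of 36 pairs and the median was 0.14. It was above 0 in 19 of 36 pairs with a median of 0.0066 within elmo2-/- samples, and in 28 of 36 with a median of 0.43 within elmo2+/+ samples. On the TPM scale 8 pairs, in place of 4, had an unadjusted permutation p under 0.05, and the median r was 0.41. TPM were not rescaled between samples, so a factor shared by the genes of a sample may enter these r. Its part was not tested.

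**Figure D3:**
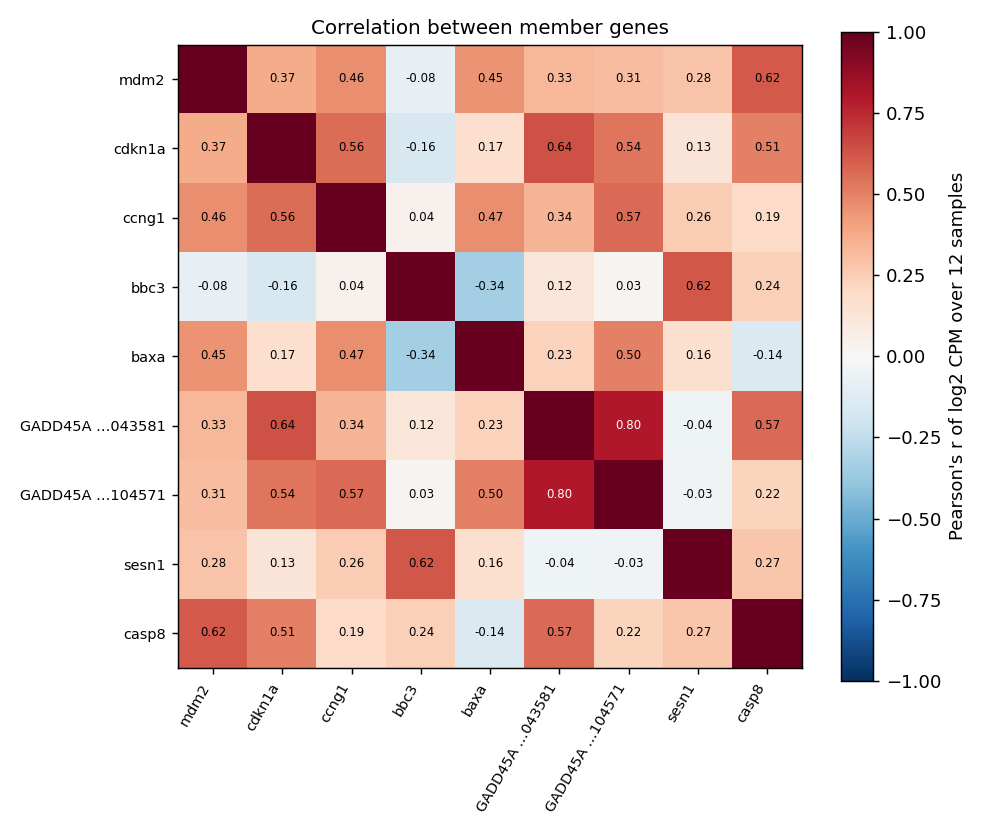
Pearson's r of log2 CPM between each pair of the 9 rows over the 12 samples, with the value in each cell and colour from -1 (blue) to 1 (red). The GADD45A pair has the highest r (0.80) and the lowest r is -0.34.

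Genes whose pattern was most like each member were sought among 15151 genes with a mean of at least 5 CPM, by Pearson's r of log2 CPM after the genotype means were removed, over 12 samples. For mdm2 these were PFKM (r = 0.91), PDXK (0.90), KYAT1 (0.89), si:dkeyp-73d8.9 (0.87) and PBLD (0.86). For cdkn1a they were si:dkey-33c14.3 (0.94) and DDX51 (0.93), for ccng1 selenow1 (0.91) and isg20 (0.91), and for bbc3 PPP1R13B (0.98) and KBTBD12 (0.93). baxa was most like PBDC1 (0.88) and SURF1 (0.88), and sesn1 was most like SLC7A3 (0.87) and MTERF4 (0.86). GADD45A ENSDARG00000104571 was most like nmrk2 (0.94) and SOCS1 (0.93), and GADD45A ENSDARG00000043581 most like gvin1l2 (0.94) and sowahab (0.92). For casp8 they were crfb4 (0.89) and the unnamed ENSDARG00000116043 (0.88). Each r is among the highest of 15151 over only 12 samples, and so wide a search can give high r by chance alone. These values are a description and were not tested.

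The direction of mdm2 depended on the unit. On the TPM scale, mdm2 averaged 24.1 ± 3.28 in elmo2-/- samples and 25.1 ± 2.90 in elmo2+/+ samples (SD, n = 6 each), a log2 difference of -0.06 (exact permutation p = 0.558). TPM were not rescaled between samples, and the median of all genes there was -0.035 with a pseudocount of 1 and -0.042 with 0.1. The estimated count divided by the TPM of a gene follows the mean length of the transcripts to which its reads were assigned. On the log2 scale, centred on the median gene of each sample, this ratio was -0.55 ± 0.07 for mdm2 in elmo2-/- samples and -0.69 ± 0.15 in elmo2+/+ samples. The difference of 0.14 did not reach p under 0.05 (exact permutation p = 0.0649, 9 rows examined), and elmo2+/+ replicates 1 and 4 lay inside the elmo2-/- range. The other 8 rows differed by -0.04 to 0.01 on this scale. Among 19210 genes with at least 20 counts in every sample, 2.00 percent had a larger difference than mdm2.

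**Figure D4:**
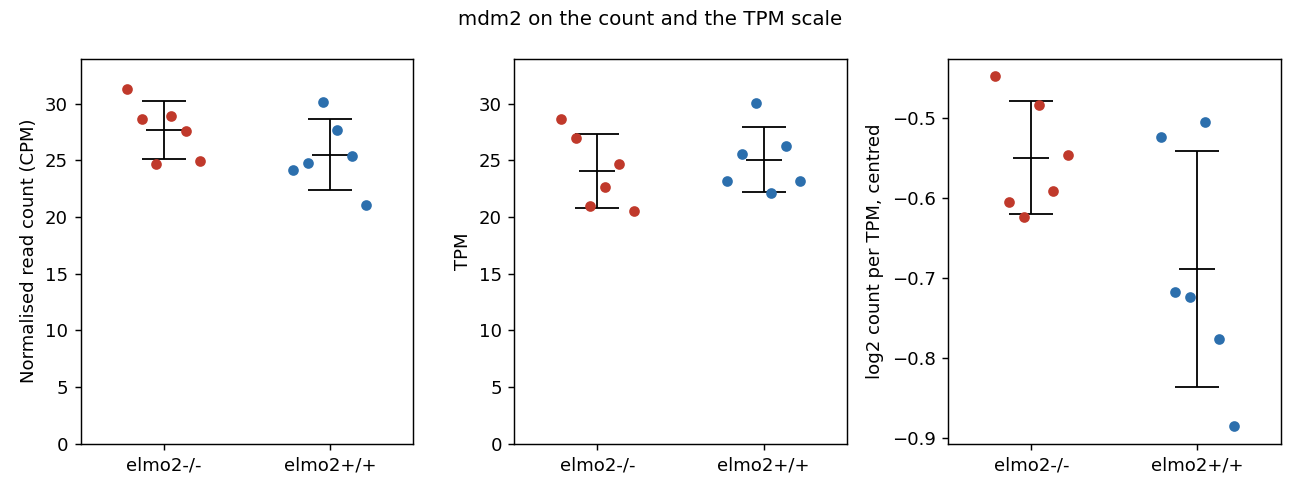
mdm2 in each sample as normalised read count (CPM), as TPM and as the log2 ratio of estimated count to TPM centred on the median gene, elmo2-/- left and elmo2+/+ right, with mean ± SD (n = 6). The mean is higher in elmo2-/- for CPM (27.7 against 25.5) and lower for TPM (24.1 against 25.1), and the log2 ratio is -0.55 in elmo2-/- and -0.69 in elmo2+/+.

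The wider p53 pathway and cell death machinery were covered by 4 lists with 81 rows tested. None of these passed an adjusted p under 0.05 in edgeR's quasi-likelihood test, beside 0 percent of all genes. At an unadjusted p under 0.05 there were 11 of the 81, with 9 at a higher level in elmo2-/- (beside 2.55 percent of all genes) and 2 at a lower level (beside 2.13 percent). This count was 5 without elmo2-/- replicate 3, without elmo2+/+ replicate 6 and on the TPM scale. The lists were chosen with earlier results of these data known, so the count may in part reflect that choice.

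In the list of the p53 family, its activating kinases and its regulators (13 rows), the median log2 fold change was -0.01. Of the estimates 5 were above 0, beside 49.8 percent of all genes. MDM4, which binds and inhibits p53 together with Mdm2, had 62.2, 67.7 and 72.3 CPM (lowest, median and highest) in elmo2-/- samples and 60.7, 63.2 and 74.2 CPM in elmo2+/+ samples, with a log2 fold change of 0.05 ± 0.06 (SE). The genotypes overlapped. The only row at an unadjusted p under 0.05 was HIPK2, a kinase that phosphorylates p53. This is 7.69 percent of the list, beside 4.68 percent of all genes. HIPK2 had 24.2, 27.1 and 35.0 CPM in elmo2-/- samples and 30.5, 31.9 and 40.7 CPM in elmo2+/+ samples (log2 fold change -0.26 ± 0.10 SE, edgeR unadjusted p = 0.0201, adjusted p = 0.9997).

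The list of other p53 targets (30 rows) had a median log2 fold change of 0.09, but only 0.04 without elmo2-/- replicate 5 or without elmo2+/+ replicate 6. On the TPM scales it was 0.03 and 0.05, where the median of all genes was -0.035 and -0.042. Of its estimates 21 were above 0, beside 49.8 percent of all genes, and 9 were below. Those below included DDB2 (-0.31 ± 0.23 SE), XPC (-0.12 ± 0.10 SE) and ZMAT3 (-0.12 ± 0.125 SE). In this list 8 rows were at an unadjusted p under 0.05, all with the higher level in elmo2-/-, beside 2.55 percent of all genes in that direction. Both PLK2 rows and both GADD45B rows were among them. BTG2, an anti-proliferative protein, had 51.8, 116 and 177 CPM (lowest, median and highest) in elmo2-/- samples and 59.5, 62.2 and 94.5 CPM in elmo2+/+ samples. GADD45B ENSDARG00000027744 had 22.3, 76.8 and 102 CPM in elmo2-/- samples and 20.4, 28.4 and 57.5 CPM in elmo2+/+ samples. In both, 4 elmo2-/- samples exceeded every elmo2+/+ sample and elmo2-/- replicate 2 lay low. Their log2 fold changes were 0.81 ± 0.25 and 1.08 ± 0.34 (SE, edgeR unadjusted p = 0.00586 and 0.00662, adjusted p = 0.9997 for each). BTG2 and GADD45B, like GADD45A, are known to respond to many stimuli besides p53. elmo2-/- replicates 1, 3 and 5 were highest for BTG2, for this GADD45B row and for the immediate early genes. That list was put together after values had been seen, and its part in these differences was not tested. PLK2 ENSDARG00000090752, a polo-like kinase, is named because it was the single row of the 81 whose genotypes did not overlap in CPM, beside 0.198 percent of all genes. It had 20.6, 21.4 and 23.0 CPM in elmo2-/- samples and 17.5, 19.1 and 20.5 CPM in elmo2+/+ samples, a log2 fold change of 0.18 ± 0.06 (SE). Its TPM overlapped, at 12.58 to 15.45 in elmo2-/- samples and 11.31 to 14.52 in elmo2+/+ samples.

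The BCL2 family (15 rows tested) had a median log2 fold change of 0.10. It was only 0.03 without elmo2-/- replicate 3, 0.04 without elmo2-/- replicate 5 and 0.05 without elmo2+/+ replicate 5. Of the estimates 10 were above 0, beside 49.8 percent of all genes. In each direction 1 row was at an unadjusted edgeR p under 0.05, together 13.3 percent of the list, beside 4.68 percent of all genes. BOK ENSDARG00000052129, a pore-forming relative of Bax, had 8.75, 10.4 and 11.4 CPM (lowest, median and highest) in elmo2-/- samples and 6.99, 8.43 and 10.1 CPM in elmo2+/+ samples (log2 fold change 0.26 ± 0.11 SE, edgeR unadjusted p = 0.0293, adjusted p = 0.9997). bcl2a, an anti-apoptotic member, had 4.15, 5.25 and 5.49 CPM in elmo2-/- samples and 5.27, 5.79 and 6.75 CPM in elmo2+/+ samples (log2 fold change -0.22 ± 0.10 SE, edgeR unadjusted p = 0.037, adjusted p = 0.9997). Both pairs of ranges overlapped.

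The caspases with their adaptors, inhibitors and substrates (23 rows tested) had a median log2 fold change of 0.03. Of the estimates 14 were above 0, beside 49.8 percent of all genes. No row was at an unadjusted edgeR p under 0.05, beside 4.68 percent of all genes, a share at which few of 23 rows would be found. The estimates ran from -0.34 to 0.24.

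**Figure D5:**
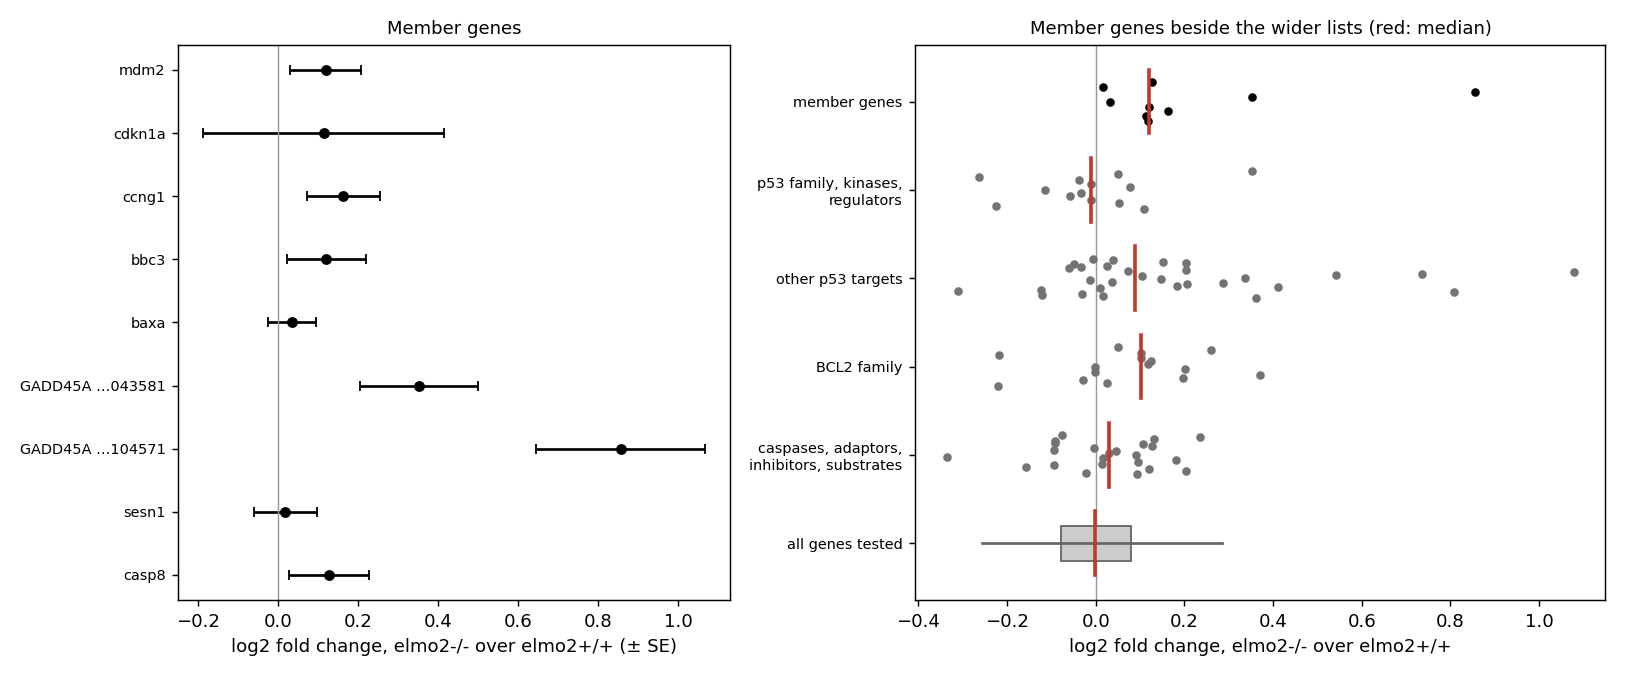
Left, log2 fold change (elmo2-/- over elmo2+/+) of the 9 rows with its standard error; right, the same rows beside each row of the 4 wider lists and all 22259 genes tested, whose box spans the middle quartiles and whose line spans the 5th to 95th percentile. Red lines are medians, at 0.12 for the 9 rows, -0.01, 0.09, 0.10 and 0.03 for the lists from top to bottom, and -0.0006 for all genes.

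Markers of dividing cells and of phagocytes were set beside these values, since p53 target levels can differ between dividing and resting cells and phagocytes take up dying cells. The 9 rows of the proliferation list summed to 295 to 380 TPM in elmo2-/- samples and to 315 to 394 TPM in elmo2+/+ samples (exact permutation p = 0.348). None of them was at an unadjusted edgeR p under 0.05, beside 4.68 percent of all genes. The 6 rows of the list of macrophages and neutrophils summed to 32.2 to 44.7 TPM in elmo2-/- samples and to 35.4 to 59.2 TPM in elmo2+/+ samples (exact permutation p = 0.0952, adjusted p = 0.143). Of the 5 tested, lyz (log2 fold change -0.34 ± 0.13 SE) and csf1ra (-0.52 ± 0.24 SE) had an unadjusted p under 0.05 with the lower level in elmo2-/-, beside 2.13 percent of all genes. The other 3 had estimates above 0, at 0.31 ± 0.47 for MPEG1 ENSDARG00000043093, 0.16 ± 0.25 for MPEG1 ENSDARG00000055290 and 0.23 ± 0.22 for marco (SE), so that the median of the 5 was 0.16. The MPEG1 row ENSDARG00000078569 had at most 1 count in any sample. The part of these cells in the levels of the p53 target and cell death genes was not tested.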

How the data were processed

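RNA of 12 samples of 30 whole larvae at 120 hpf (6 elmo2-/- and 6 elmo2+/+, genotype and replicate from the labels) was sequenced on a BGISEQ-500. The authors deposited 2 files per sample. The estimated counts deposited by the authors are not scaled between samples, and between 43.3 and 44.7 percent of the values are not whole numbers. The deposited TPM sum to 1000000 per sample. The submitters' processing notes name Trim Galore 0.6.4, kallisto 0.4.6 and the build GRCz11; annotation and read filters are not given in the sources used here. Such estimation splits reads between similar transcripts, so that paralogs are uncertain. Transcript effective length enters TPM but not counts.

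Estimated counts were rounded and analysed with edgeR 4.0.16 in R 4.3.3: filterByExpr (minimum count of 10), TMM normalization, the quasi-likelihood test on genotype alone and p-values adjusted after Benjamini and Hochberg over 22259 genes. Genes were called at an adjusted p under 0.05. The SE was derived from the log2 fold change and the F statistic. CPM use TMM factors (0.95 to 1.07) and log2 CPM a prior count of 2. Single genes were tested by exact two-sided permutation of the samples, and correlations by 100000 two-sided permutations and adjustment over 36 pairs. Totals of 20116203 to 20939679 counts and a biological coefficient of variation of 0.171 mean that spread between pools limits the precision.

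Of the 32520 identifiers, 29201 had a symbol. Names that cover more than 3 identifiers (htra2, mfap4) were left out. aen, casp8l1, casp8l2, mpx and hbbe2 found no row, and bcl2l11, bmf1, birc5b, cycsa and a copy of MPEG1 did not pass the filter. Some further genes of the set and of the lists are not reported here. The genes and lists were chosen with earlier results of these data known. Named genes were all members, elmo2 and mdm4, from each wider list up to 2 with the smallest unadjusted p under 0.05, and the genes with the most similar pattern. The immediate early genes and PLK2 were added after their values had been seen. The design foresaw a search of promoters for p53 motifs, which was not done here.

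Alternatives were DESeq2 1.42.0, a filter of 1 count in any sample or of 1 CPM in 6 samples, RLE factors or library size in place of TMM, limma 3.58.1 with a pseudocount of 1 or 0.1 on TPM for genes past the main filter, the replicate number as a block, leaving out each sample, and elmo2-/- library numbers 13 to 16 or 7 and 8 only. The edgeR procedure was tested on simulated data. Python 3.11.15 and scipy 1.17.1 were used.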

Additional observations from a re-analysis of the deposited data

Results flagged for a closer look

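In groups of 6 samples, a highest or lowest sample was looked for whose gap to its neighbour took more of the whole range than Dixon's critical value allows, in 34 groups (17 genes in 2 genotypes). Chance alone marks about 1 in 20 groups, and 3 were found. GADD45A ENSDARG00000104571 in elmo2-/- replicate 3 had 39.4 CPM, where the next elmo2-/- sample had 23.0 CPM. BTG2 in elmo2+/+ replicate 1 had 94.5 CPM, where the next elmo2+/+ sample had 68.3 CPM. GADD45B ENSDARG00000027744 in elmo2+/+ replicate 1 had 57.5 CPM, where the next elmo2+/+ sample had 33.7 CPM.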

How the results depend on the processing

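The labels do not say whether equal replicate numbers pair the samples. The correlation of deviations from the genotype means ran from -0.25 to 0.62 over the 6 numbers, with a mean of 0.16. Of the 12 samples, 4 correlated best with their own number. These values do not settle whether the samples are paired. Genes at an unadjusted p under 0.05 in edgeR's quasi-likelihood test numbered 1445 with the replicate block, in place of 1041. With the replicate block, 0 genes were called and elmo2 had an adjusted p of 0.077 in edgeR's quasi-likelihood test, the member median was 0.12, wider-list rows at an unadjusted p under 0.05 numbered 17 in place of 11, and 3 member rows (ccng1 and both GADD45A rows) in place of 2 were at an unadjusted p under 0.05.

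DESeq2 called 3 genes (elmo2, si:ch211-171h4.7 and ENSDARG00000100939) and limma on log2(TPM + 1) and on log2(TPM + 0.1) called 1 gene, elmo2. The elmo2 log2 fold change was -0.93 with DESeq2 (adjusted p = 0.000123), -1.17 with log2(TPM + 1) (limma adjusted p = 0.0327) and -1.19 with log2(TPM + 0.1) (limma adjusted p = 0.0335). The count at an unadjusted p under 0.05 was 688 genes with elmo2-/- library numbers 13 to 16 only and 1496 with elmo2-/- library numbers 7 and 8 only. It was 704 to 1620 when 1 sample was left out (highest without elmo2-/- replicate 1). The smallest adjusted p of any member under any alternative was 0.125, for GADD45A ENSDARG00000104571.

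The median log2 fold change of the 9 rows ran from 0.04 to 0.18 over 22 alternatives. Rows above 0 numbered 6 with either TPM scale, 8 with library size only, 6 with elmo2-/- library numbers 7 and 8 only, and 7 to 9 when 1 sample was left out. Rows at an unadjusted p under 0.05 numbered 1 with library size only, with either TPM scale and with library numbers 7 and 8 only, and 1 to 2 when 1 sample was left out.

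With log2(TPM + 1) and log2(TPM + 0.1) the log2 fold change changed sign for mdm2 (-0.059 and -0.062), baxa (-0.0087 and -0.0092) and sesn1 (-0.025 and -0.026). With library size only it did so for sesn1 (-0.0021), and with library numbers 7 and 8 only for cdkn1a (-0.53), sesn1 (-0.045) and casp8 (-0.061). Leaving out 1 sample gave -0.14 to 0.28 for cdkn1a and -0.019 to 0.055 for sesn1. None of these passed an adjusted p under 0.05 and the cause was not tested. TPM were not rescaled between samples, and the median of all genes was -0.035 and -0.042 on these scales.

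Wider-list rows at an unadjusted p under 0.05 numbered 5 with either TPM scale and with library numbers 7 and 8 only, and 5 to 13 when 1 sample was left out. The BCL2 family median was 0.0061 and 0.0072 on the TPM scales, 0.041 with library numbers 13 to 16 only, and 0.028 to 0.11 when 1 sample was left out. No pair of members passed the adjusted threshold under any of the 5 alternatives for correlations. The filters on low counts, RLE factors and DESeq2 changed the direction of no member.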

Other observations

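The 20 rows of immediate early genes were chosen after their values had been seen and are therefore given without a test. Their median log2 fold change was 0.54, which may in part reflect that choice, beside 0.12 for the 9 rows of p53 target and cell death genes. The values ran from 0.12 (NR4A3 and EGR3) to 1.16 (NPAS4 ENSDARG00000055752), all elmo2-/- over elmo2+/+. None passed an adjusted p under 0.05 in edgeR's quasi-likelihood test, beside 0 percent of all genes. None was without overlap between genotypes, beside 0.198 percent of all genes. egr1, a zinc finger transcription factor, had 82.7, 177 and 292 CPM (lowest, median and highest) in elmo2-/- samples and 83.8, 109 and 178 CPM in elmo2+/+ samples. ier2b had 11.8, 31.8 and 41.2 CPM in elmo2-/- samples and 12.9, 14.6 and 23.98 CPM in elmo2+/+ samples. NPAS4 ENSDARG00000055752, which neurons induce upon activity, had 12.03, 73.6 and 126 CPM in elmo2-/- samples and 14.98, 24.8 and 74.4 CPM in elmo2+/+ samples.

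Averaged over the 20 rows as log2 deviation from each row's mean, elmo2-/- replicates 1 to 6 stood at 0.52, -0.53, 1.03, 0.07, 0.47 and -0.09, against 0.10, -0.50, -0.05, -0.15, -0.43 and -0.44 in elmo2+/+ replicates 1 to 6. The highest of the elmo2+/+ samples, replicate 1, was also the sample in which BTG2 and GADD45B ENSDARG00000027744 stood apart, and elmo2-/- replicate 3 was highest for cdkn1a and for both GADD45A rows. cdkn1a was lowest in elmo2+/+ replicates 5 and 6 and next in elmo2-/- replicate 6.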
